A study of Homo sapiens with 18 samples.

Results

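T24 is an established human bladder cancer cell line, and ACAT1 is the mitochondrial acetyl-CoA acetyltransferase, which joins or splits acetyl-CoA and acetoacetyl-CoA in the breakdown of isoleucine and in ketone body use. T24 cells transfected with siACAT1-1, a siRNA against ACAT1, were compared with T24 cells transfected with siNC, a control siRNA, by RNA-seq. These are 6 of the 18 libraries of the series, 3 in each group, chosen by their cell line and siRNA labels and joined into 3 pairs by replicate number. The other 12 libraries are T24 cells with siACAT1-2, a second siRNA against ACAT1, and UM-UC-3 bladder cancer cells with each of the 3 siRNAs. The labels give siNC cells the genotype WT and siACAT1-1 cells the genotype ACAT1 knockdown, cells of both groups were transfected, and the 6 libraries come from 1 cell line. The time after transfection and what a replicate number marks are not given in the sources used here. The test covered the 20144 of 39496 genes that had enough counts.

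Cells divide through a G1 phase, a DNA synthesis (S) phase and mitosis. Genes for DNA synthesis are switched on late in G1 by E2F factors, and genes for mitosis are switched on in G2 by complexes that bind a short promoter element called the CHR, often beside CCAAT boxes. NRF2 is a factor that switches on genes against oxidants, among them those for NADPH supply, glutathione and aldo-keto reductases. The study asked whether loss of ACAT1 acts on the cell cycle, on epithelial to mesenchymal transition (EMT) and on the targets of MYC.

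Between 25163490 and 34417230 reads per T24 library were counted on genes. T24 libraries with the same number deviated together from their group means. In the 6 libraries the replicate number took 62.0% of the variance, the siRNA 20.9% and the rest 17%. These shares are not on equal terms, since the replicate number has more levels than the siRNA. With so few libraries, a factor without any effect also takes a share. Replicate 2 stood apart from replicates 1 and 3 in both groups. The chi-square per degree of freedom between libraries of a group was 119 to 174 where replicate 2 was in the pair and 35.5 and 43.6 between replicates 1 and 3. The number was therefore kept as a block in the model, and values without it, or without replicate 2, are given below. The epithelial keratin KRT8 was present at 94.7 to 324 RPKM in the 6 libraries. CDH1, KRT5 and UPK3A were at or near 0, and GATA3 was at 0.122 to 0.371 RPKM. The markers of other cells CD3E, CD14, PTPRC, VWF and DES were below 0.1 RPKM. In a list of 12 genes of other cell types, the 3 tested members summed to 15.86, 121.1 and 16.58 RPKM with siNC. With siACAT1-1 they summed to 18.8, 153.9 and 21.41 RPKM, so not every member of that list was near 0.

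ACAT1 was at 16.8, 14.6 and 17.1 RPKM with siNC in replicates 1, 2 and 3 and at 1.24, 1.46 and 1.17 RPKM with siACAT1-1. Every siACAT1-1 library was far below every siNC library, with a mean 92.0% lower (16.2 ± 1.4 against 1.29 ± 0.149 RPKM, SD, n = 3). ACAT1 lies at chr11:108121516-108147776 on the plus strand of GRCh38, as the files give it. Its log2 fold change was -3.64 with a standard error of 0.17 (adjusted p = 2.9e-11 by the quasi-likelihood test of edgeR, adjusted after Benjamini and Hochberg). Dropping any single library of the 6 left it between -3.82 and -3.53.

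With the block, 2799 genes passed an adjusted p of 0.05, which is 13.9% of those tested. Of these, 1327 were higher with siACAT1-1 (6.59%) and 1472 were lower (7.31%). Protein-coding genes made up 2347 of the calls and 13640 of the genes tested. Their share called was thus above the 13.9% of all genes that is set beside the gene lists below. The median size of a change among the called genes was 1.55-fold, 522 were changed at least 2-fold, and 2687 moved the same way in 3 of 3 pairs. When the block was dropped, 25 genes passed (14 higher and 11 lower) and 2325 had an unadjusted p under 0.05, so the calls below rest on comparing libraries within a replicate number. They also rest on replicates 1 and 3. Leaving out the library of siNC replicate 1, siNC replicate 3, siACAT1-1 replicate 1 or siACAT1-1 replicate 3 gave 1137, 1001, 764 and 1038 genes, while 2851 and 3852 passed without siNC replicate 2 and siACAT1-1 replicate 2. The groups did not overlap in RPKM for 1337 of the called genes, against 2704 of all genes tested (13.4%).

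**Figure D1:**
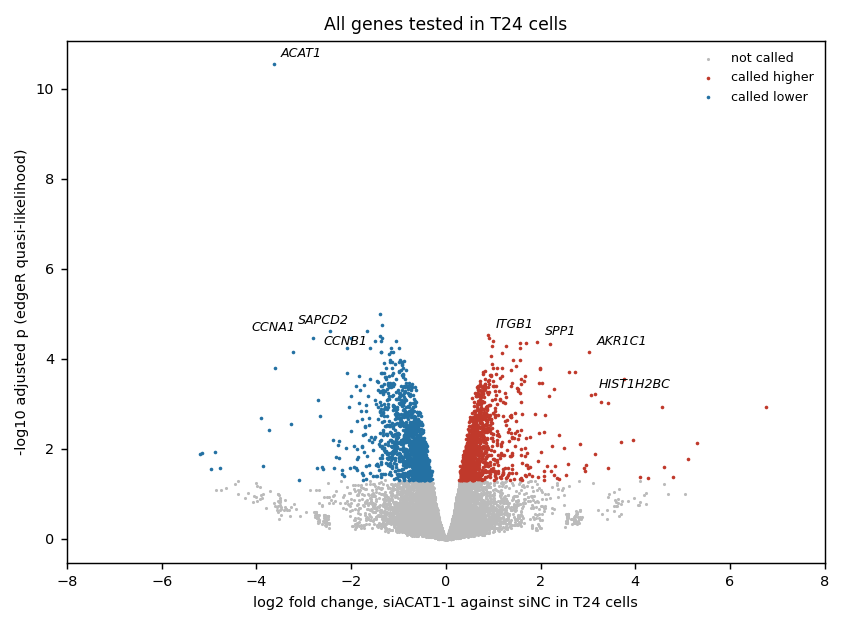
Each point is 1 of the 20144 genes tested in T24 cells, with the log2 fold change of siACAT1-1 against siNC on the horizontal axis and -log10 of the adjusted p on the vertical axis. ACAT1 stands apart at -3.64, and 1327 genes called higher (red) and 1472 called lower (blue) lie on the right and the left.

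Genes of mitosis were lower with siACAT1-1, nearly without exception. Of the 40 tested members of the mitosis list (cyclins B, spindle motors, kinetochore and checkpoint proteins), 39 were lower and 0 were higher (97.5%). The median log2 fold change was -0.91 against 0.00 over all genes, of which 13.9% were called. The spindle checkpoint gene BUB3 (0.06) was the exception in the list. The summed level of the 40 genes was 1736, 1092 and 1469 RPKM with siNC in replicates 1, 2 and 3 and 939, 559.6 and 858 RPKM with siACAT1-1. Replicate 2 was the lowest of each group, and the siACAT1-1 libraries lay below every siNC library. The median fell in each pair, by 0.90, 0.89 and 0.77. Leaving out both libraries of replicate 1, 2 or 3 left 25, 36 and 34 members lower. None passed without the block, where the median was -0.88.

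CCNB1, the cyclin that drives entry into mitosis, was at 77.6, 53.6 and 76.9 RPKM with siNC and 28.2, 16.4 and 41.1 RPKM with siACAT1-1. All 3 siACAT1-1 values lay below all siNC values, and the change was -1.37 on the log2 scale (standard error 0.17, adjusted p = 7.2e-05). MKI67, which encodes the proliferation antigen Ki-67, was at 117, 49.2 and 98.0 RPKM with siNC and 51.3, 23.9 and 39.8 RPKM with siACAT1-1. Here siNC replicate 2 lay inside the siACAT1-1 range, but the value fell in each pair (-1.16, standard error 0.14, adjusted p = 5.8e-05). CDC20, an activator of the anaphase-promoting complex, was at 29.7, 14.8 and 25.2 RPKM with siNC and 12.1, 5.47 and 13.3 RPKM with siACAT1-1 (-1.22, adjusted p = 3.4e-04). CCNB2, another cyclin B, fell by 1.20 and the kinetochore motor CENPE by 1.17 (adjusted p = 7.7e-05 and 1.1e-04). The spindle motor KIF20A had the largest fall of the list at -1.59 (adjusted p = 2.8e-04).

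Promoters of 5 mitosis genes that fell are shown because these genes moved together. They run from 250 bases before the start to 50 bases after it (RefSeq, GRCh38.p14), and capitals mark the CHR (TTTGAA or TTCGAA, either strand) and the CCAAT box (CCAAT, either strand). CCNB1 lies at chr5:69166900-69167199 on the plus strand, CCNB2 at chr15:59104896-59105195 on the plus strand, MKI67 at chr10:128126374-128126673 on the minus strand, CDC20 at chr1:43358731-43359030 on the plus strand and CENPE at chr4:103198294-103198593 on the minus strand.
CCNB1: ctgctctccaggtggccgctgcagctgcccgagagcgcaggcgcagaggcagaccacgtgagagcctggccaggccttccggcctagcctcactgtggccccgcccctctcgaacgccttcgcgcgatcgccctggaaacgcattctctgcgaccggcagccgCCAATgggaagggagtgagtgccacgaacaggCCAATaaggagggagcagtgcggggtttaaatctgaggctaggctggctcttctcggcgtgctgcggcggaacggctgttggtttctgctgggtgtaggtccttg
CCNB2: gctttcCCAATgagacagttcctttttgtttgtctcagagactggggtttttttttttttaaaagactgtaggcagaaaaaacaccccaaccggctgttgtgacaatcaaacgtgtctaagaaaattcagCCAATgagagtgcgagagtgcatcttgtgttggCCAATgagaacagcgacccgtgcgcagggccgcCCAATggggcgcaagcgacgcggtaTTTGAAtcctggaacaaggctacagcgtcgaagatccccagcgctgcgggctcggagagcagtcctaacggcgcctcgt
MKI67: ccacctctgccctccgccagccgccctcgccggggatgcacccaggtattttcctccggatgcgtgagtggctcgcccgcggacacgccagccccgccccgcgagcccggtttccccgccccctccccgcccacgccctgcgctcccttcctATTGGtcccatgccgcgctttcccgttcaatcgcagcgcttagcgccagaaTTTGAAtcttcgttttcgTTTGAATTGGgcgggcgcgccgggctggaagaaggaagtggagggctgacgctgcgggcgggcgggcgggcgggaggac
CDC20: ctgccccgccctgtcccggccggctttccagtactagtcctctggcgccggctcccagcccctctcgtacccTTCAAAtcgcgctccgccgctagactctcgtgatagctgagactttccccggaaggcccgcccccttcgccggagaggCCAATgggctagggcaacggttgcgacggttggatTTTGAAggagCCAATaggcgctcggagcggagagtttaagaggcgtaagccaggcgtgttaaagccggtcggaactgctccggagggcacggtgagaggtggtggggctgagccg
CENPE: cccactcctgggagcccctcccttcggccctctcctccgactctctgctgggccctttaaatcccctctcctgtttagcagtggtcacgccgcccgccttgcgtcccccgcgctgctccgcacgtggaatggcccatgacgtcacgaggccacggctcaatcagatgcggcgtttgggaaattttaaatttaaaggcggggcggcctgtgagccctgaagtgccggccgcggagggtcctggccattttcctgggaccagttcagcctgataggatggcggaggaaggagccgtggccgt
Of the 33 mitosis genes with a promoter in the table, 26 held a CHR (78.8%), 27 a CCAAT box (81.8%) and 22 both (66.7%). Over all 27303 promoters the shares were 16.6%, 35.7% and 6.58%, and over the 11746 promoters of tested genes they were 11.5%, 36.8% and 4.95%. Among the genes called lower, 16.7% of 1034 promoters held a CHR and 45.1% a CCAAT box, and among those called higher 10.6% and 34% of 960 did. The CCNB1 window held CCAAT boxes and no CHR in the letters searched (TTTGAA or TTCGAA), and the CENPE window held neither. Other forms of the CHR were not searched for. These matches are a description of the letters and were not tested.

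Genes of DNA replication were lower as well, by less, and their fall was near 0 in replicate 2. Of the 30 members of the DNA synthesis and nucleotide supply list 17 were lower and 0 higher (56.7%, median -0.47). Of 25 replication licensing genes 15 were lower and 0 higher (60%, median -0.47). Of 28 Fanconi and homologous recombination genes 14 were lower and 0 higher (50%, median -0.46). Over all genes 13.9% were called. The medians in pairs 1, 2 and 3 were -0.73, -0.07 and -0.73 for DNA synthesis and -0.44, -0.10 and -0.77 for licensing. Without both libraries of replicate 2, 21, 17 and 19 members of these lists were lower, without those of replicate 1, 5, 2 and 0 were, and without those of replicate 3, 3, 1 and 0 were. None of these genes passed without the block.

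TK1, which makes thymidine monophosphate, was at 40.8, 34.3 and 35.8 RPKM with siNC and 16.8, 24.7 and 15.1 RPKM with siACAT1-1. The groups did not overlap, and replicate 2 had the smallest fall (log2 fold change -0.96, standard error 0.17, adjusted p = 9.5e-04). RNASEH2A, a subunit of the enzyme that removes ribonucleotides from DNA, showed the same order, from 28.9, 32.4 and 30.4 RPKM to 9.35, 25.5 and 11.8 RPKM (-1.04, adjusted p = 0.0021). The replicative helicase subunits MCM3 and MCM7 fell by 0.52 and 0.48 (adjusted p = 0.0072 and 0.0095), and CDC7, the kinase that starts origins, by 0.70 (adjusted p = 0.0012). BRCA1, a repair gene of homologous recombination, fell by 0.70 (adjusted p = 0.0081).

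Among cyclins, CDKs, their inhibitors and E2F genes, 7 of 29 were lower and 1 was higher (27.6%, against 13.9% of all genes). Without the libraries of replicate 1, 2 and 3, 3, 13 and 3 were lower. E2F1, the first of the E2F activators, was at 10.7, 8.66 and 8.98 RPKM with siNC and 5.08, 6.27 and 3.67 RPKM with siACAT1-1 (log2 fold change -0.93, standard error 0.16, adjusted p = 8.3e-04). CCND1, the G1 cyclin D1, was at 123, 72.4 and 125 RPKM with siNC and 55.7, 52.1 and 62.1 RPKM with siACAT1-1 (-0.86, standard error 0.13, adjusted p = 2.9e-04). Both genes had no overlap between the groups. CDKN1B, which encodes the inhibitor p27, was at 5.21, 6.02 and 7.04 RPKM with siNC and 8.66, 6.37 and 10.3 RPKM with siACAT1-1 (0.47, adjusted p = 0.027). Of the other G1 regulators, CDK2 (-0.25, adjusted p = 0.29), CDK4 (-0.26, adjusted p = 0.14), CDK6 (0.36, adjusted p = 0.10), CCNE1 (0.18, adjusted p = 0.59), CDKN2A (-0.35, adjusted p = 0.095) and CDKN1A (0.13, adjusted p = 0.78) did not pass. CDK4 shares 43.2% of its exon bases with TSPAN31, which makes its count uncertain. The E2F1 promoter, at chr20:33686336-33686635 on the minus strand, is shown for its E2F element (TTTCGCGC or TTTGGCGC, either strand, in capitals). This element was in 1.18% of all promoters and 1.98% of promoters of tested genes. In this list of cyclins, CDKs, inhibitors and E2F genes 22.7% of 22 promoters held it. The shares were 27.3% of the 22 licensing, 15.4% of 26 DNA synthesis and 8.33% of 24 Fanconi and homologous recombination promoters.
E2F1: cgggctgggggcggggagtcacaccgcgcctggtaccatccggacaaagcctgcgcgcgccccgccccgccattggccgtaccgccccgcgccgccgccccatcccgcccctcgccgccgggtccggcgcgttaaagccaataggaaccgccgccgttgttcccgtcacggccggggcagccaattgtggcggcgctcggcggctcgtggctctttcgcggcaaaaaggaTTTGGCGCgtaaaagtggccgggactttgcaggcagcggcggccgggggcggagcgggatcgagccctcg

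**Figure D2:**
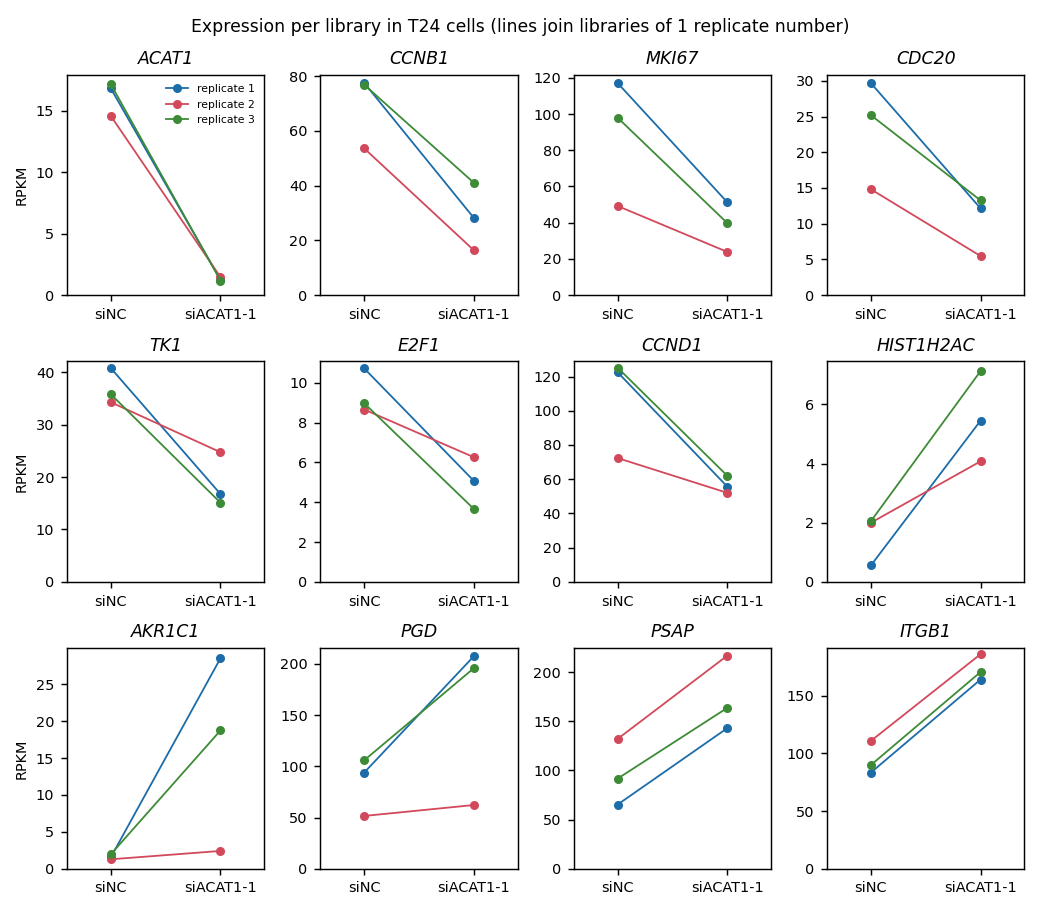
RPKM (vertical axis, from 0) of 12 genes in the 6 T24 libraries, with siNC on the left, siACAT1-1 on the right and a line and colour for each replicate number. ACAT1 falls to 1.17 to 1.46 RPKM in every siACAT1-1 library, CCNB1, MKI67 and CDC20 fall in every replicate number, and AKR1C1 and PGD rise steeply in replicates 1 and 3 and little in replicate 2.

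MYC itself was at 9.69, 32.6 and 14.4 RPKM with siNC and 11.4, 27.6 and 14.8 RPKM with siACAT1-1. Replicate 2 was the highest in both groups and MYC differed by 0.01 on the log2 scale (standard error 0.22, adjusted p = 0.998), with a sign that turned without the block (-0.054). Of the 16 MYC target genes that the study listed, 12 were lower and 0 higher (75%, against 13.9% of all genes, median -0.49). Since the study chose them on these samples, this is not independent evidence of their direction. The count was 1, 13 and 1 without the libraries of replicate 1, 2 and 3, and 0 without the block. Of these 16, 5 are also in the licensing list, 5 in the DNA synthesis list and 1 in the mitosis list. TCOF1, a factor for ribosomal RNA synthesis, fell by 0.95 (adjusted p = 0.0023). In a list of ribosome biogenesis genes, another known output of MYC, 5 of 32 were lower and 0 higher (15.6% against 13.9% of all genes), among them FBL (-0.56, adjusted p = 0.0015). In the MYC network list 3 of 12 were higher and 1 lower (33.3%, against 13.9% of all genes). Without the libraries of replicate 1, 2 and 3, 1, 3 and 2 were higher and 0, 1 and 0 lower. None of the list passed without the block. The antagonists MXI1 (0.94, adjusted p = 0.0045) and MXD4 (0.79, adjusted p = 0.0064) were higher, as was FBXW7, which targets MYC for breakdown (0.65, adjusted p = 0.0034). MXD3 was lower (-0.38, adjusted p = 0.026), but it shares 40.4% of its exon bases with PRELID1. AKT1 (-0.17, adjusted p = 0.35) and GSK3B (0.13, adjusted p = 0.56) did not pass. In the PI3K, AKT, GSK3 and mTOR list 3 of 27 were higher and 2 lower (18.5%), a share near the 13.9% of all genes. Its member TSC1, a brake on mTOR, was at 4.97, 6.18 and 5.79 RPKM with siNC and 9.90, 8.48 and 10.6 RPKM with siACAT1-1 (0.79, adjusted p = 4.05e-04).

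Most tested genes of the NRF2 list were higher. Of 23 tested members 14 were higher and 0 lower (60.9%, against 13.9% of all genes). The median was 0.78, and the pairs gave 1.11, 0.22 and 0.72, with the smallest value in replicate 2. Without the libraries of replicate 1, 2 or 3, 6, 15 and 11 members were higher and 0, 1 and 0 lower, and without the block 1 was higher. AKR1C1, an aldo-keto reductase, was at 1.56, 1.28 and 1.97 RPKM with siNC and 28.5, 2.41 and 18.7 RPKM with siACAT1-1. Every siACAT1-1 value was above every siNC value, but replicate 2 lay close to them (log2 fold change 3.03, standard error 0.38, adjusted p = 7.2e-05). AKR1C3 went from 0.840, 0.697 and 1.25 RPKM to 6.61, 0.929 and 5.57 RPKM (1.96, adjusted p = 3.4e-04). These genes are close copies of each other, so reads may be shared between them. AKR1B10 was listed at 0 RPKM in all 3 siNC libraries and at 0.68, 0 and 0.09 RPKM with siACAT1-1. Pooled over the siACAT1-1 group, its 36 counts are at least 13.2-fold higher, with 3 counts over the siNC group as the floor. Most of these counts came from replicate 1, and replicate 2 was at 0 in both groups. PGD, which makes NADPH in the pentose phosphate pathway, was at 93.8, 51.5 and 106 RPKM with siNC and 207, 62.2 and 196 RPKM with siACAT1-1 (0.78, adjusted p = 5.7e-04). The cystine carrier SLC7A11 rose by 1.03 (adjusted p = 0.038). The classical targets HMOX1 (-0.02) and GCLM (0.25) and NFE2L2, the gene of NRF2 itself (0.31), did not pass.

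Lysosome and autophagy genes were mostly higher, with a median above 0 in every pair. Of 29 tested members 15 were higher and 1 lower (55.2%, against 13.9% of all genes). The median was 0.40, and 0.49, 0.29 and 0.53 in the pairs. Without replicate 1, 2 or 3, 8, 17 and 9 members were higher and 0, 2 and 0 lower. Without the block 1 was higher. PSAP, the precursor of the saposins that help break down sphingolipids, was at 65.3, 132 and 91.7 RPKM with siNC and 143, 217 and 164 RPKM with siACAT1-1. The groups did not overlap, and PSAP rose by 0.90 on the log2 scale (standard error 0.10, adjusted p = 3.5e-05). LAMP1, a lysosomal membrane protein, rose by 0.61 (adjusted p = 5.7e-04), while the cathepsin CTSZ fell by 0.49 (adjusted p = 0.0245).

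Interferon-stimulated genes were higher in pairs 1 and 3, with a median near 0 in pair 2. Of 39 tested members 13 were higher and 0 lower (33.3%, against 13.9% of all genes). The pair medians were 0.83, -0.05 and 0.69. Without replicate 1 there were 2 members higher, without replicate 2 20 higher and 1 lower, and without replicate 3 1 higher. None passed without the block. IFI27 was at 1.89, 3.36 and 2.67 RPKM with siNC and 8.72, 4.33 and 10.3 RPKM with siACAT1-1 (log2 fold change 1.47, adjusted p = 0.0016). Among inflammatory cytokines and chemokines 5 of 27 were higher and 0 lower (18.5% against 13.9% of all genes), and 0, 10 and 1 were higher without the libraries of replicate 1, 2 and 3. The median in pair 2 was -0.11. TNF, an inflammatory cytokine, was at 1.01, 2.54 and 1.09 RPKM against 3.64, 2.57 and 5.36 RPKM (1.37, adjusted p = 0.014).

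Clustered histone genes, a list added after the values were seen, held 12 of 37 higher and 0 lower (32.4%, against 13.9% of all genes). Of the 80 genes in the list, 37 had enough counts. The median was 0.82, and 0.96, 0.41 and 0.92 in pairs 1, 2 and 3. Without the libraries of replicate 1, 2 and 3, 5, 14 and 6 were higher and 0 lower, and 1 was higher without the block. Histone mRNAs of these clusters mostly end without a poly(A) tail, and the libraries were made with an mRNA kit. The level of these genes therefore depends on which forms were kept, and this was not tested. HIST1H2AC (now H2AC6) was at 0.557, 2.00 and 2.05 RPKM with siNC and 5.45, 4.07 and 7.12 RPKM with siACAT1-1 (log2 fold change 1.99, adjusted p = 1.6e-04), and its neighbour HIST1H2BC (now H2BC4), on the other strand, at 0.279, 0.170 and 0.171 RPKM and 1.64, 1.27 and 2.53 RPKM (3.07, adjusted p = 6.3e-04). Every siACAT1-1 library lay above every siNC library for both. HIST1H2BC is at chr6:26114873-26123926 and HIST1H2AC at chr6:26124145-26139116, and the promoter of HIST1H2AC (chr6:26123922-26124221, plus strand) reaches from 1 gene to the other, with the CCAAT box in capitals, which 85.7% of 35 histone promoters hold.
HIST1H2AC: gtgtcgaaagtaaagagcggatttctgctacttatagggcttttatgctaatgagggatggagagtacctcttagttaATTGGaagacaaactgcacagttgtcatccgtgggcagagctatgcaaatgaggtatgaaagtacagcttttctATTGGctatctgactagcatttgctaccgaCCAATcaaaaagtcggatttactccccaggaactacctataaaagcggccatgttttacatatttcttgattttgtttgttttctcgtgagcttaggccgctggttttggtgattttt

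EMT genes moved both ways, with 3 of 29 higher and 5 lower (27.6%, against 13.9% of all genes). Without the libraries of replicate 1, 2 and 3, 3, 6 and 2 were higher and 4, 5 and 3 lower. In the fit without the block 1 was higher and 0 lower. ITGB1, the integrin beta 1 chain, was at 83.3, 111 and 89.8 RPKM with siNC and 164, 186 and 170 RPKM with siACAT1-1 (log2 fold change 0.89, standard error 0.10, adjusted p = 3.0e-05), and ITGA5 (0.99, adjusted p = 4.05e-04) and the collagenase MMP14 (0.61, adjusted p = 0.0050) rose with it. CDH2, N-cadherin, was at 14.8, 8.25 and 15.0 RPKM with siNC and 9.28, 4.59 and 7.27 RPKM with siACAT1-1 (-0.84, adjusted p = 1.7e-04). FN1, fibronectin, fell by 0.87 (adjusted p = 0.00145), ZEB2, a repressor of epithelial genes, by 0.52 (adjusted p = 0.0090), ACTA2 by 1.19 (adjusted p = 8.0e-04) and VIM, vimentin, by 0.49 (adjusted p = 0.011). ACTA2 and VIM share 30.1% and 24.4% of their exon bases with antisense genes. SNAI2 (0.30, adjusted p = 0.39) and MMP9 (-0.13, adjusted p = 0.89) did not pass, and SNAI1 was listed at 0 in 4 of the 6 libraries. Of the epithelial and urothelial list 3 of 12 were lower and 0 higher (25%, against 13.9% of all genes). These were KRT19 (-1.14, adjusted p = 2.2e-04), KRT7 (-0.68, adjusted p = 0.0014) and KRT18 (-0.33, adjusted p = 0.045).

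Metabolic genes moved both ways, and the shares called stand beside 13.9% of all genes. In the ketone body and branched-chain amino acid list, which holds ACAT1, 4 of 26 were higher and 3 lower (26.9%). Without the libraries of replicate 1, 2 and 3, 1, 5 and 0 were higher and 1, 2 and 1 lower. AUH, a leucine breakdown enzyme, rose by 0.70 (adjusted p = 0.0018), and BDH1 was at -0.53 (adjusted p = 0.040). ACAT2, the cytosolic thiolase, was at -0.53 (adjusted p = 0.0071), and shares 52.3% of its exon bases with SOD2. In fatty acid beta-oxidation 5 of 22 were higher and 1 lower (27.3%). Its counts without the libraries of replicate 1, 2 and 3 were 0, 3 and 0 higher and 0, 1 and 0 lower. None of the list passed without the block. The carnitine carrier SLC25A20 was at 0.88 (adjusted p = 0.014) and HADH at -0.77 (adjusted p = 0.0038). In cholesterol synthesis 2 of 23 were higher and 3 lower (21.7%). Here 0, 2 and 0 were higher and 0, 3 and 1 lower without the libraries of replicate 1, 2 and 3. The glycolysis and hypoxia list had 7 of 28 higher and 0 lower (25%), and 1, 11 and 1 higher without the libraries of replicate 1, 2 and 3. NDRG1, a hypoxia-induced gene, was at 1.34, 4.29 and 4.07 RPKM with siNC and 6.31, 5.76 and 18.4 RPKM with siACAT1-1 (1.67, adjusted p = 2.4e-04). Of the p53 targets 4 of 29 were lower and 0 higher (13.8%), and MDM2, the p53 ligase, was at 3.10, 2.69 and 3.57 RPKM with siNC and 1.24, 1.50 and 1.32 RPKM with siACAT1-1 (-1.18, adjusted p = 1.2e-04). Shares far below the background were found for cytosolic ribosomal proteins, with 4 of 76 lower and 0 higher (5.26%), and nuclear respiratory chain genes, with 1 of 75 higher and 0 lower (1.33%). The proteasome list had 5 of 31 higher and 0 lower (16.1%, with 0, 10 and 0 higher without the libraries of replicate 1, 2 and 3), mitochondrial ribosomal proteins 0 higher and 5 of 76 lower (6.58%), ATF4 targets and tRNA synthetases 2 of 33 higher and 4 lower (18.2%), and ER chaperones 0 higher and 1 of 22 lower (4.54%).

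**Figure D3:**
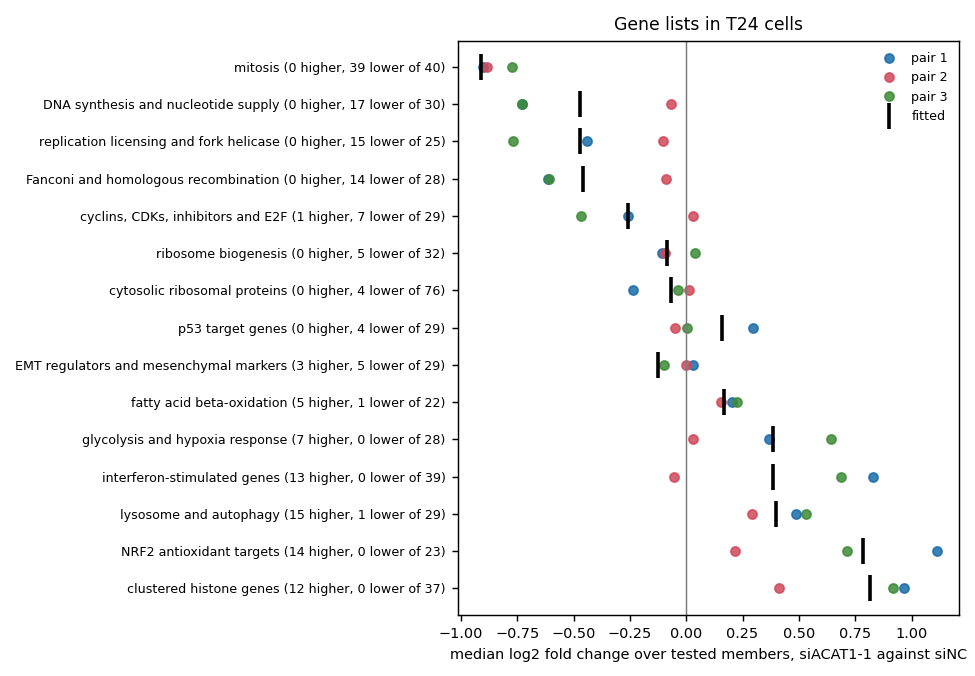
Median log2 fold change over the tested members of 15 gene lists in T24 cells (horizontal axis), as fitted with the block (black bar) and in each pair of libraries (coloured points), with the members called beside each name. The mitosis medians lie between -0.91 and -0.77 in the fit and every pair, while pair 2 lies near 0 for DNA synthesis and for interferon-stimulated genes.

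Several of the largest changes lay outside these lists. TNIP3, an inhibitor of NF-kappa-B signalling, was at 0.216, 1.13 and 0.379 RPKM with siNC and 2.80, 2.38 and 2.24 RPKM with siACAT1-1 (log2 fold change 2.28, adjusted p = 4.7e-04), and KYNU, an enzyme of tryptophan breakdown, rose by 2.02 (adjusted p = 3.4e-04). SPP1, osteopontin, was at 1.08, 1.47 and 0.953 RPKM with siNC and 7.0, 3.46 and 3.22 RPKM with siACAT1-1 (1.93, adjusted p = 4.2e-05). LCN2, lipocalin 2, rose by 1.99 (adjusted p = 1.7e-04) with 127 RPKM in siNC replicate 2 and 0.618 and 1.90 RPKM in the other siNC libraries, so its level differed more between replicates than between siRNAs. SAA1, CAB39L and KRT34 were also among the largest rises, at 2.83, 1.69 and 1.73. CCNA1, the germline cyclin A, had the largest fall of the named genes after ACAT1, from 0.799, 1.74 and 2.29 RPKM to 0.062, 0.166 and 0.530 RPKM (-2.80, adjusted p = 3.5e-05). TIMM21, a part of the mitochondrial import machinery, was at 16.4, 13.5 and 12 RPKM with siNC and 4.62, 7.13 and 3.33 RPKM with siACAT1-1 (-1.50, adjusted p = 4.1e-05). EFEMP1, an extracellular matrix protein, fell by 1.69 (adjusted p = 0.0014) and the growth factor FGF1 by 1.61 (adjusted p = 0.0065). PPM1N, NUDT8, SAPCD2, C2orf48, PALM3 and CRIP1 were also among the largest falls, at -1.84, -1.73, -1.67, -1.62, -1.59 and -1.57. SAPCD2 and CRIP1 share 22.9% and 26.4% of their exon bases with other genes, which makes their counts uncertain.

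The siRNAs against ACAT1 differed from each other in T24 cells. In a contrast without a siNC term, from the fit in which all libraries share the estimate of the spread, 2958 genes differed between siACAT1-1 and siACAT1-2 (14.7%), 1376 higher (6.83%) and 1582 lower (7.85%) with siACAT1-1, and 195 without the block. ACAT1 itself was at -4.34 with siACAT1-2 against siNC. Against siNC, siACAT1-2 called 1708 genes (8.48%), 916 higher (4.55%) and 792 lower (3.93%), and the siNC libraries are shared with siACAT1-1, so the lists are set side by side. The NRF2 list had 15 of 23 higher and 0 lower with siACAT1-1 than with siACAT1-2, among them AKR1C1 by 1.86, SLC7A11 by 1.60 and PGD by 0.99, and siACAT1-2 itself gave 2 higher and 1 lower (median 0.05). EMT genes differed in the other direction, with 0 higher and 8 lower, among them FN1 by -1.63 and VIM by -0.86, and siACAT1-2 itself gave 8 higher and 1 lower (median 0.37). FN1 was at 0.77 with siACAT1-2 against siNC (adjusted p = 0.0049) and VIM at 0.37 (adjusted p = 0.065). The mitosis list had 1 higher and 6 lower in that test, while siACAT1-2 itself gave 28 lower and 0 higher (median -0.60). Lysosome and autophagy genes had 1 higher and 4 lower, with 16 higher and 0 lower under siACAT1-2 (median 0.52), and histone genes 7 higher and 0 lower. Among the genes with the smallest p, MTMR2, CPD, CCT2, TPM4 and HNRNPA0 were lower with siACAT1-2 (-2.06, -1.81, -1.35, -1.13 and -1.75 against siNC), and under siACAT1-1 they were at 0.79, 0.41, -0.01, 0.04 and -0.06.

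**Figure D4:**
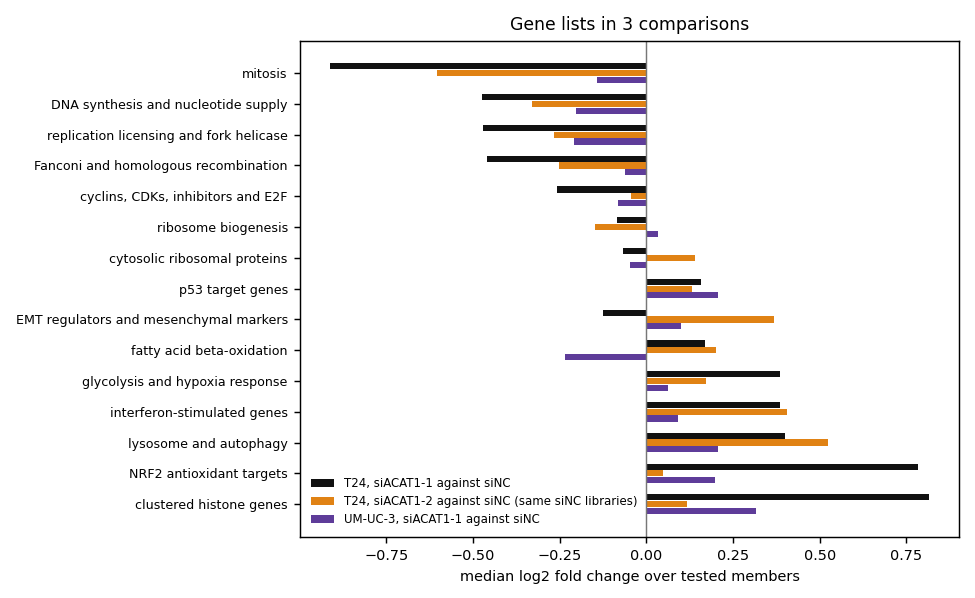
Median log2 fold change over the tested members of 15 gene lists (horizontal axis) in T24 cells with siACAT1-1 (black) and siACAT1-2 (orange), which share siNC libraries, and in UM-UC-3 cells with siACAT1-1 (purple). The NRF2 bar is at 0.78 for siACAT1-1 and 0.05 for siACAT1-2 in T24 cells, and the mitosis bar is at -0.91, -0.60 and -0.14.

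The same siRNA in UM-UC-3 cells called 617 genes (3.06%), 395 higher (1.96%) and 222 lower (1.1%), with ACAT1 at -3.94. The test of the difference of the siACAT1-1 effect, T24 minus UM-UC-3, passed for 86 genes (0.427%), 28 higher (0.139%) and 58 lower (0.288%) in T24 cells, and for 0 in the edgeR fit that leaves the block out (where 696 had an unadjusted p under 0.05). These comparisons share no library. Of the genes called, 240 were called in both cell lines, which is 8.57% of the T24 calls and 38.9% of the UM-UC-3 calls, and 236 of them moved the same way. Of the T24 calls 81.6% had an estimate of the same sign in UM-UC-3 cells, against 62.5% of all genes tested. In the mitosis list 3 genes differed, all lower in T24 cells, and in UM-UC-3 cells 0 members passed in either direction (median -0.14). HMMR, CENPE and CCNB2 were the members that differed, by -1.37, -1.10 and -1.05. In the NRF2 list 3 differed, all higher in T24 cells, with PGD at 0.78 in T24 cells and -0.40 in UM-UC-3 cells.

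**Figure D5:**
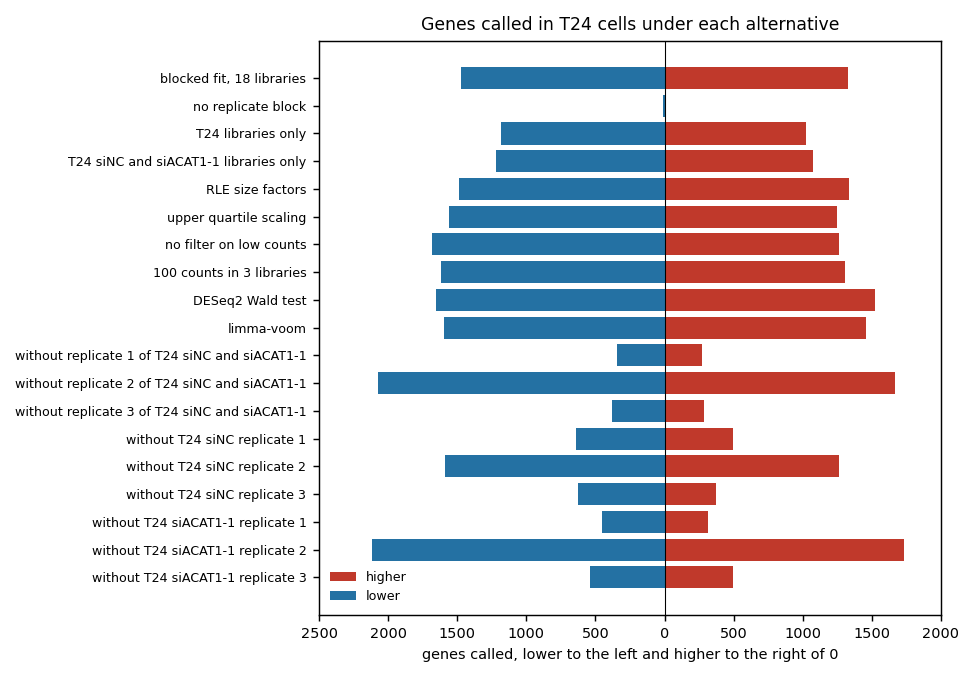
Genes called in T24 cells with siACAT1-1 against siNC under each alternative, with those lower to the left of 0 and those higher to the right (horizontal axis). The count is 25 without the replicate block, 615 and 666 without the libraries of replicate 1 or 3, and 3742 without those of replicate 2.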

How the data were processed

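The 6 T24 libraries were analysed within the whole table of 18, since the fit uses all of them. The authors prepared stranded mRNA libraries with molecular identifiers, used Trimmomatic 0.36 for read filtering, STAR 2.5.3 for mapping (GRCh38) and featureCounts of Subread 1.5.1 for counting, per the labels and the methods. They deposited whole-number counts without normalization, and RPKM values that the authors calculated from the same counts. The annotation release, the strand setting and whether identifiers were collapsed are not given in the sources used here, and antisense and overlapping genes are therefore uncertain. Counts were tested with edgeR 4.0.16 in R 4.3.3 (TMM, filterByExpr by group, quasi-likelihood test, Benjamini-Hochberg adjustment, threshold 0.05), in 1 model with a coefficient for each of 6 groups and blocks formed by cell line and replicate number. The pairing was taken from the data, since same-numbered T24 libraries deviated together (r from 0.356 to 0.686 in 9 pairs). For other numbers r was -0.567 to 0.210, across genes, which are not independent replicates. Deviations were taken from group means, so a positive r for the same number pulls the values for other numbers below 0. The contrast between them is therefore partly built in. The same libraries then gave the calls. The pairing was looked at in T24 cells only, while the model also blocks UM-UC-3 libraries. RPKM is used for levels and is per gene length. DESeq2 1.42.0 and limma 3.58.1 were alternatives, as were other scalings and filters and leaving out libraries. Replicates are labelled biological. With the block, the p-values measure the spread left among the 18 libraries after group and replicate number are fitted. They do not measure the spread between replicate numbers. The members, the gene lists and the rule for named genes were chosen with earlier results of these data known. Named were ACAT1, the 12 largest rises and falls among called protein-coding genes that moved the same way in 3 pairs with a mean RPKM of at least 1, the genes the study blotted, up to 4 called members of a list in each direction by smallest p, and the 5 with the smallest p in each test of a difference. BUB3, HMMR, AKR1B10, HMOX1, GCLM and NFE2L2 lie outside this rule and were named after their values were seen. KRT8, KRT5, UPK3A and GATA3 are markers. Some genes that the rule names are not reported here. Promoters came from RefSeq (GRCh38.p14), matched by symbol for 11746 of the tested genes.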

Additional observations from a re-analysis of the deposited data

Results flagged for a closer look

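The genes named here were singled out because their response to siACAT1-1 differed between T24 and UM-UC-3 cells in the test of the difference itself, with the block and an adjusted p under 0.05. All differences are log2, T24 minus UM-UC-3. TMEM71 differed by -5.08 and SPX by -4.09, both with under 2 RPKM in every UM-UC-3 library. In T24 cells against siNC, TMEM71 was at -0.70 (adjusted p = 0.11 by the quasi-likelihood test, not called). SPX was at -1.13 in T24 cells (adjusted p = 0.024). Most of both differences therefore came from UM-UC-3 cells. CALB2, calretinin, differed by 2.80, with under 1 RPKM in every T24 library. PGD differed by 1.19 and SPP1 by 2.14. SAPCD2 differed by -1.35, CENPE by -1.10, CCNB2 by -1.05 and CCNA1 by -2.03, and 3 of the 40 genes of the mitosis list passed this test. The mitochondrial gene MT-CO1 differed by 0.57 and AEN, a p53 target, by -1.15. Without the block 0 of the 20144 genes passed this test in edgeR, with 696 at an unadjusted p under 0.05, and with the block DESeq2 called 325.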

How the results depend on the processing

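The sign of ACAT1 and its call held under each of the 18 alternatives (-3.82 to -3.53). The main count of 2799 genes stayed within 1.5-fold in 11 of 18 alternatives, and it was 25 without the replicate block, 615, 3742 and 666 without the pairs of replicate 1, 2 and 3 and 764 to 3852 when 1 library was left out. Differences between siACAT1-1 and siACAT1-2 numbered 195 without the block, 651, 3818 and 1101 without the pair of replicate 1, 2 and 3 and 993 to 3811 without 1 library. Differences between the cell lines, 86, numbered 0 without the block, 608 without a filter on low counts, 325 with DESeq2, 6, 728 and 24 without the pair of replicate 1, 2 and 3 and 14 to 702 without 1 library. The cause was not tested. The pairing by replicate number gave these calls, and without the block 155 results of named genes lost theirs. The sign turned for MYC without the block (-0.054) and without replicate 1 or 3 (-0.076, -0.028), for CCT2 (0.026) without replicate 1, for CCNE1 (-0.15) and TPM4 (-0.032) without replicate 2 and for MMP9 (0.37) without replicate 3, none of which was called. Depth was 25163490 to 34417230 counted reads.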
